A study of Homo sapiens with 3 samples.

Results

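The miR-200 family was examined by name in small RNA libraries of 3 cancer-derived cell lines. Its members were taken from a fixed list of 9 mature miRNAs, covering both arms of the hairpins of miR-200a, miR-200b, miR-200c and miR-141 together with miR-429, and all 9 were found among the 2588 mature miRNAs listed. Of the 9, 5 come from a cluster on chromosome 1 (hsa-miR-200a-3p, hsa-miR-200a-5p, hsa-miR-200b-3p, hsa-miR-200b-5p and hsa-miR-429) and 4 from a cluster on chromosome 12 (hsa-miR-200c-3p, hsa-miR-200c-5p, hsa-miR-141-3p and hsa-miR-141-5p).

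The study addressed the inhibition of miR-21-5p in tumour cells, and these libraries profiled the miRNAs of the parental lines, before any MIR21 deletion. C643 is an anaplastic thyroid carcinoma line, ES-2 an ovarian cancer line and Huh-7 a hepatocellular carcinoma line. All were grown untreated in DMEM with 10% FBS at 37 °C in 5% CO2 and harvested 48 h after seeding. Each line gave 1 library, so no difference between lines has a replicate, no test between lines was possible, and each interval covers counting error only.

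MiR-200 miRNAs are a classical mark of epithelial cells. They repress ZEB1 and ZEB2, transcription factors that switch off the adhesion gene CDH1 during epithelial-mesenchymal transition, and ZEB1 and ZEB2 in turn repress both miR-200 clusters by binding E-boxes in their promoters. Neither these mRNAs nor any protein was measured here, so the epithelial state of the lines is described through miRNAs alone.

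The targets of a miRNA are chosen mainly by its seed, bases 2 to 8 from the 5′ end. RefSeq (GRCh38.p14) held mature sequences for 8 of the 9 members, all but miR-141-5p. The 3p arms are printed with the seed in capitals, because the seeds divide the family differently from the chromosomes.

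miR-200b-3p: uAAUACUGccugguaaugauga
miR-200c-3p: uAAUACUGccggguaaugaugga
miR-429: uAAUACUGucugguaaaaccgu
miR-200a-3p: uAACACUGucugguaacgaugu
miR-141-3p: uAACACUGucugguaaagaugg

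The miRNAs miR-200b-3p, miR-200c-3p and miR-429 share the seed AAUACUG, and miR-200a-3p and miR-141-3p share AACACUG. Counted from the 5′ end, U4C separates the seed of miR-200b-3p from that of miR-200a-3p. Each seed is encoded in both clusters. Across the clusters the sequences are close: over 22 compared bases miR-200b-3p and miR-200c-3p differ by 2 substitutions (U11G and A22G), and miR-200a-3p and miR-141-3p also differ by 2 (C17A and U22G). Within the chromosome 1 cluster miR-200b-3p and miR-429 differ by 6. No other miRNA of the tables with a sequence in RefSeq carried either 3p seed.

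Of the 5p arms, 3 are shown because they carry other seeds than the 3p arms.

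miR-200b-5p: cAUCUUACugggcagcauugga
miR-200a-5p: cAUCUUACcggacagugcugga
miR-200c-5p: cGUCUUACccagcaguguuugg

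On chromosome 1 (GRCh38, plus strand, GENCODE version 29) MIR200B lies at 1167104 to 1167198, MIR200A at 1167863 to 1167952 and MIR429 at 1169005 to 1169087, within 1984 bases. GENCODE annotates no other gene over them, whereas RefSeq places all 3 inside the long non-coding RNA gene MIR200BHG (1162877 to 1170338). On chromosome 12, also on the plus strand, MIR200C lies at 6963699 to 6963766 and MIR141 at 6964097 to 6964191, with 330 bases between them. Both lie in an intron of the long non-coding RNA gene MIR200CHG.

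The promoter windows of these host genes, from 250 bases before to 50 bases after the annotated RefSeq start, are shown because precursors inside a host gene can be made from its transcript. Capitals mark the E-box CAGGTG, searched on both strands and here found as its reverse complement CACCTG. For MIR200BHG the window is chr1:1162627-1162926 and for MIR200CHG it is chr12:6962995-6963294, both on the plus strand of GRCh38.p14.

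MIR200BHG: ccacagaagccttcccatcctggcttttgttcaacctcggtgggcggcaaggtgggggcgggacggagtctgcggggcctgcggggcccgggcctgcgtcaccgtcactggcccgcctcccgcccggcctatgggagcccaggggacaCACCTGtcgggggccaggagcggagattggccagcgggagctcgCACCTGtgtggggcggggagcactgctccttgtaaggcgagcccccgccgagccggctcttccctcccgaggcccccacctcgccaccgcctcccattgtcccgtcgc
MIR200CHG: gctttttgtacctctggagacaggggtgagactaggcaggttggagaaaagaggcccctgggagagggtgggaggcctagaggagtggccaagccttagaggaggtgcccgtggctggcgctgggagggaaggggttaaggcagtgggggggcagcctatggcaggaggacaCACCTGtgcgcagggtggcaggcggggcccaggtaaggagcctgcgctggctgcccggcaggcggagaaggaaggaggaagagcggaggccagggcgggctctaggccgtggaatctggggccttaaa

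The MIR200BHG window held 2 matches, 102 and 58 bases before the start, and the MIR200CHG window held 1, 78 bases before it. Of 35116 RefSeq promoter windows of this length, 20.6% held at least 1 match and 3.49% held 2 or more. The matches are letters in a window, and binding was not measured.

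The C643 library held 8183100 reads on miRNAs, the Huh-7 library 2173587 and the ES-2 library 1663181, recovered from the deposited values. Levels are given as reads per 1000000 miRNA reads of the same library (RPM), a measure that does not depend on scaling between libraries, with Wilson 95% intervals. A miRNA without a read could reach 0.367 RPM in C643, 1.38 in Huh-7 and 1.80 in ES-2, the level of 3 reads. Of the marker lists, the 3 hepatocyte miRNAs held 13.8% of the Huh-7 reads, 0.00595% of those of C643 and 0.000361% of those of ES-2. The 5 blood cell miRNAs held 0.0480% in ES-2 and at most 0.0000460% elsewhere. Their ES-2 reads were 542 of miR-142-3p, 255 of miR-142-5p and 1 of miR-451a, with 0 of miR-223-3p and miR-144-3p. Although C643 was sequenced most deeply, only 99 of its 649 detected miRNAs had 1 to 9 reads, against 283 of 608 in ES-2 and 345 of 858 in Huh-7. In C643 miR-17-3p and miR-183-3p were at 0 while their 5p arms had 1874 and 8349 reads. The part of this feature in the C643 values of 0 was not tested. Every limit given below from a C643 zero, for a level, share, fold or ratio, treats it as a count of reads. Such a limit holds only under that reading.

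The family was highest in Huh-7 and scarce in the other lines. Its 9 members together had 8538 reads in Huh-7, 118 in C643 and 87 in ES-2. This corresponded to 3928 RPM in Huh-7 (95% CI 3846 to 4012), 52.3 RPM in ES-2 (42.4 to 64.5) and 14.4 RPM in C643, with an upper bound of 17.3. By share, Huh-7 exceeded ES-2 by 75.1-fold (exact 95% interval 60.8 to 93.9) and C643 by 272-fold (227 to 330). ES-2 exceeded C643 by 3.63-fold (2.72 to 4.83). On the deposited scale these folds were 39.8, 174 and 4.37. Their size, though not their direction, thus rested on the factor between libraries, which the intervals do not cover. Where Huh-7 is the higher, its folds by share below are also larger than those on the deposited scale. All 3 differences by share were larger than counting error. That of ES-2 over C643 came from the chromosome 12 cluster, with 73 reads in ES-2 and 0 in C643. It holds only if that 0 is a count of reads. The chromosome 1 cluster was 1.71-fold higher in C643 (0.982 to 3.23), within counting error. In this bulk RNA, few cells with the family and little of it in every cell cannot be told apart.

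Even in Huh-7 the family remained far below the leading miRNA. For each of its reads there were 84.8 reads of miR-21-5p in Huh-7, 19843 in C643 and 5394 in ES-2. The number of members with at least 1 read was 7 in Huh-7, 2 in C643 and 4 in ES-2. miR-200c-5p and miR-141-5p had none in any library.

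**Figure D1:**
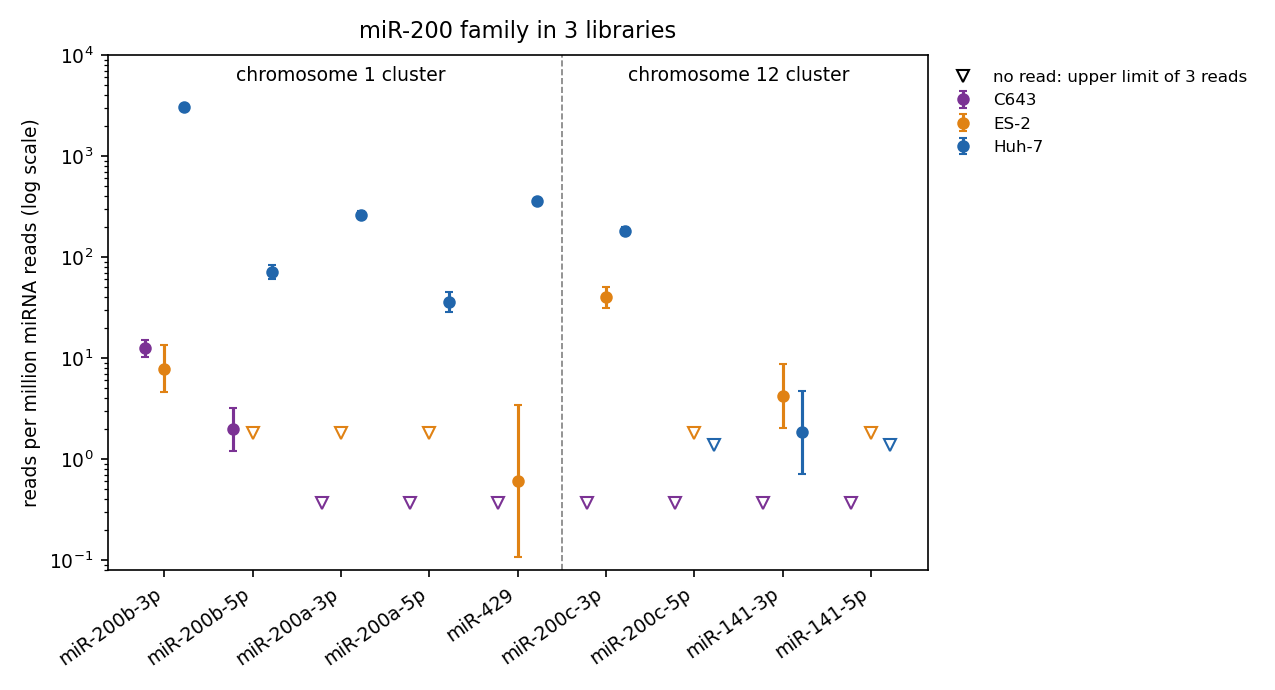
RPM of the 9 members (log axis) in C643, ES-2 and Huh-7, 1 library each, with Wilson 95% intervals, and open triangles at the level of 3 reads where no read was found. The Huh-7 point is highest for all 5 members of the chromosome 1 cluster, and miR-200c-3p lies at 181 in Huh-7 and 39.7 in ES-2.

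The 2 clusters were compared next, since each can be transcribed on its own. In Huh-7 the chromosome 1 cluster made up 95.3% of the family's reads (94.9 to 95.8). In ES-2 the order was turned, and the chromosome 12 cluster held 83.9% of 87 reads (74.8 to 90.2). In C643 all 118 reads came from chromosome 1 (100%, with a lower bound of 96.8%). The ratio of the chromosome 1 to the chromosome 12 cluster was thus 20.5 in Huh-7 (exact 95% interval 18.5 to 22.7), 0.192 in ES-2 (0.0999 to 0.343) and at least 39.3 in C643. Between Huh-7 and ES-2 the ratio changed 107-fold, and their intervals did not overlap. A ratio within a library does not depend on scaling between libraries.

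**Figure D2:**
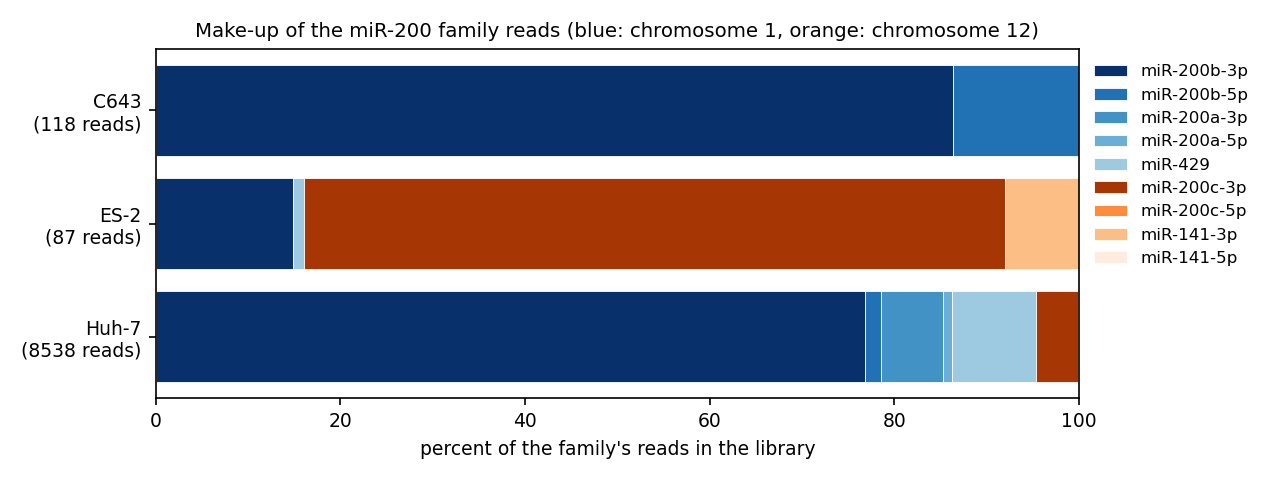
Percent of the miR-200 family reads of each library that came from each member, with the chromosome 1 cluster in blues and the chromosome 12 cluster in oranges. ES-2 is filled mainly by miR-200c-3p (75.9%), Huh-7 and C643 mainly by miR-200b-3p (76.8% and 86.4%).

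The most abundant member in Huh-7 and C643 was miR-200b-3p, which can repress ZEB1 and ZEB2. It had 6558 reads in Huh-7, 102 in C643 and 13 in ES-2. Its level was 3017 RPM in Huh-7 (2945 to 3091), where it ranked 43 of 858 detected miRNAs, 7.82 RPM in ES-2 (4.57 to 13.4) and 12.5 RPM in C643 (10.3 to 15.1). By share Huh-7 stood apart, by 386-fold over ES-2 (226 to 725) and 242-fold over C643 (199 to 297). On the deposited scale these folds were 205 and 154. C643 and ES-2 did not differ beyond counting error, at a ratio of 1.59 (0.892 to 3.10).

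Of the other products of the chromosome 1 cluster, miR-429 and both arms of miR-200a were seen almost only in Huh-7. miR-429, which shares the seed of miR-200b-3p, had 780 reads in Huh-7, 0 in C643 and 1 in ES-2. Its level in Huh-7 was 359 RPM (335 to 385), 597-fold over ES-2 by share (exact interval 107 to 23604) and at least 979-fold over C643. miR-200a-3p, which carries the other seed, had 570 reads in Huh-7 (262 RPM, 242 to 285) and 0 in both other lines. It was therefore at least 145-fold higher in Huh-7 than in ES-2 and at least 715-fold higher than in C643. Of the 5p arms, miR-200b-5p had 154 reads in Huh-7, 16 in C643 and none in ES-2. miR-200a-5p had 78 reads in Huh-7 and none in the other lines.

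As counted, the balance inside the chromosome 1 cluster was not the same in C643 and Huh-7. In Huh-7 miR-200b-3p gave 82.9% of the cluster's reads from miR-200b-3p, miR-200a-3p and miR-429, miR-429 gave 9.86% (9.23 to 10.5) and miR-200a-3p 7.21% (6.66 to 7.80). In C643 all 102 such reads were miR-200b-3p, and a count of 0 allows up to 2.94% for each of the others, which lies below their Huh-7 shares. In ES-2 the 14 reads could not show such a difference, since 0 reads of miR-200a-3p allow up to 21.4%. The difference between C643 and Huh-7 rests on the zeros of C643. These stand beside its few miRNAs with 1 to 9 reads, and the part of that feature was not tested.

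The low reads of miR-200b-3p in C643 and ES-2 were set beside those of liver miRNAs that abound in Huh-7. For every 1000 reads in Huh-7, miR-200b-3p had 15.6 in C643 and 1.98 in ES-2. miR-122-5p, the main miRNA of hepatocytes, had 1.62 in C643 and 0.0208 in ES-2, and miR-885-5p had 1.06 in C643 and 0 in ES-2, which allows up to 0.264. By this quotient alone, miR-200b-3p was above both in each library, and it was below miR-192-5p, which had 29.3 in C643 and 5.70 in ES-2. By level, miR-122-5p was the higher in C643, at 57.2 RPM against 12.5 RPM for miR-200b-3p.

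On chromosome 12 the main product was miR-200c-3p, with 394 reads in Huh-7, 0 in C643 and 66 in ES-2. Its level was 181 RPM in Huh-7 (164 to 200) and 39.7 RPM in ES-2 (31.2 to 50.5), where it ranked 196 of 608 detected miRNAs and was the highest member. If its 0 is taken as a count, C643 lay below 0.367 RPM, and ES-2 was at least 108-fold and Huh-7 at least 494-fold higher. By share Huh-7 exceeded ES-2 by 4.57-fold (3.51 to 6.02). On the deposited scale this was 2.42-fold, so the size, though not the direction, rested on the factor between libraries. miR-200c-3p was 1 of 4 miRNAs without a read in C643 among 233 at 10 RPM or more in both other lines. The others were miR-944, miR-17-3p and miR-183-3p. Counted in the same way, 13 of 254 had no read in ES-2 and 14 of 240 had none in Huh-7.

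miR-141-3p, which lies next to miR-200c on chromosome 12, did not follow it. It had 7 reads in ES-2, 4 in Huh-7 and 0 in C643. This gave 4.21 RPM in ES-2 (2.04 to 8.69) and 1.84 RPM in Huh-7 (0.716 to 4.73), and these levels did not differ beyond counting error, with a ratio of 2.29 (0.581 to 10.7). On the deposited scale the value was 4.31-fold higher in ES-2. The ratio of miR-200c-3p to miR-141-3p was 98.5 in Huh-7 (38.2 to 363) and 9.43 in ES-2 (4.33 to 24.4), intervals that did not overlap. These ratios rest on 4 and 7 reads of miR-141-3p.

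Since miR-200b-3p and miR-200c-3p differ by 2 bases, reads of each could be assigned to the other. The ratio of miR-200b-3p to miR-200c-3p was 16.6 in Huh-7 (upper bound 18.5), 0.197 in ES-2 (0.0997 to 0.360) and at least 34.0 in C643. In C643 none of the reads of this pair was assigned to miR-200c-3p, and in ES-2 most of them were. The equally similar pair of miR-200a-3p and miR-141-3p stood at a ratio of 142 in Huh-7 (55.4 to 525).

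Grouped by seed instead of chromosome, the balance of the family did not differ between Huh-7 and ES-2 beyond counting error. The reads with the seed AAUACUG (miR-200b-3p, miR-200c-3p and miR-429) amounted to 3557 RPM in Huh-7, 12.5 RPM in C643 and 48.1 RPM in ES-2. Those with AACACUG (miR-200a-3p and miR-141-3p) amounted to 264 RPM in Huh-7 against 4.21 RPM in ES-2, with none found in C643. The ratio of the seeds was 13.5 in Huh-7 (12.4 to 14.7) and 11.4 in ES-2 (5.30 to 29.3), with overlapping intervals and a change of 1.18-fold. It was at least 34.0 in C643. The ES-2 ratio rests on 80 and 7 reads, and its wide interval cannot show that the balance was kept. In ES-2 the AAUACUG reads were mainly miR-200c-3p and the AACACUG reads were all miR-141-3p, whereas in Huh-7 both seeds came mainly from chromosome 1.

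**Figure D3:**
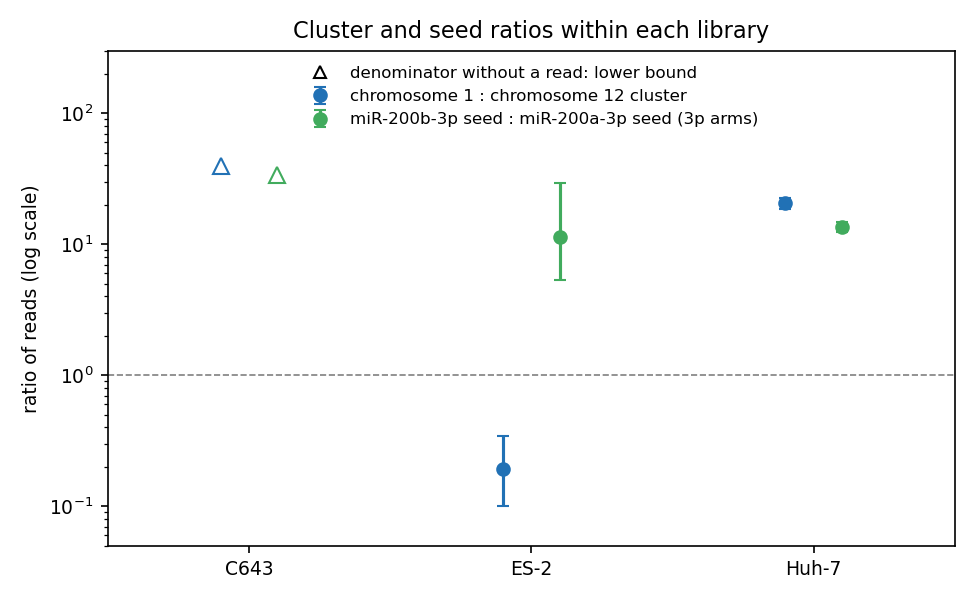
Ratio of reads within each library (log axis) between the chromosome 1 and chromosome 12 clusters (blue) and between the 2 seeds of the 3p arms (green), with exact 95% intervals, and triangles for lower bounds where the denominator had no read. In Huh-7 the cluster ratio lies at 20.5 and the seed ratio at 13.5, in ES-2 at 0.192 and 11.4.

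The arms of each hairpin were compared because usually a single arm is loaded into the silencing complex. The 3p arm was the higher in each hairpin and library with over 3 reads. In Huh-7 the ratio of 3p to 5p was 42.6 for MIR200B (36.3 to 50.3), 7.31 for MIR200A (5.76 to 9.38) and at least 131 for MIR200C. In ES-2 all 66 reads of MIR200C and all 13 of MIR200B were on the 3p arm. For comparison, the 3p arm was the higher in 45.6% of 147 precursors with at least 100 reads in Huh-7, in 39.8% of 108 in ES-2 and in 47.8% of 178 in C643.

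In C643 the MIR200B arms were less unequal. The 102 reads of miR-200b-3p stood against 16 of miR-200b-5p, a ratio of 6.38 (3.74 to 11.6), which was 6.68-fold below that of Huh-7 with intervals that did not overlap. The 5p arm made up 13.6% of MIR200B reads in C643 (8.52 to 20.9) and 2.29% in Huh-7 (1.96 to 2.68). Shifts of this size were common: of 125 precursors with at least 100 reads in both libraries, 17.6% had a 3p to 5p ratio at least 4-fold higher in Huh-7, and MIR200B ranked 21 by the size of its shift in either direction.

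ES-2 and Huh-7 share a deposited table. They were compared as log2(value + 1), a scale that shrinks the folds of scarce miRNAs, and a miRNA entered with a value of at least 10 in either library. Of the 9 members 6 entered, 5 of them through their Huh-7 value alone and miR-200c-3p through both, while the rest were below 10 in both. A member that entered only through the library where it is high had to be higher there, by a size that the filter does not set. All 5 members of the chromosome 1 cluster were at least 4-fold higher in Huh-7, a size reached in this direction by 27.7% of the 390 miRNAs compared. Their log2 differences were 7.53 for miR-200b-3p, 7.34 for miR-200a-3p, 7.02 for miR-429, 5.47 for miR-200b-5p and 4.52 for miR-200a-5p, beside a median of 0.54 over all 390. miR-200c-3p had a difference of 1.26 and did not reach 4-fold. Scaled to the library total it reached 2.16 and passed, on a scale on which 41.4% of 437 miRNAs passed in this direction. That scaling raises each log2 ratio by 0.92.

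**Figure D4:**
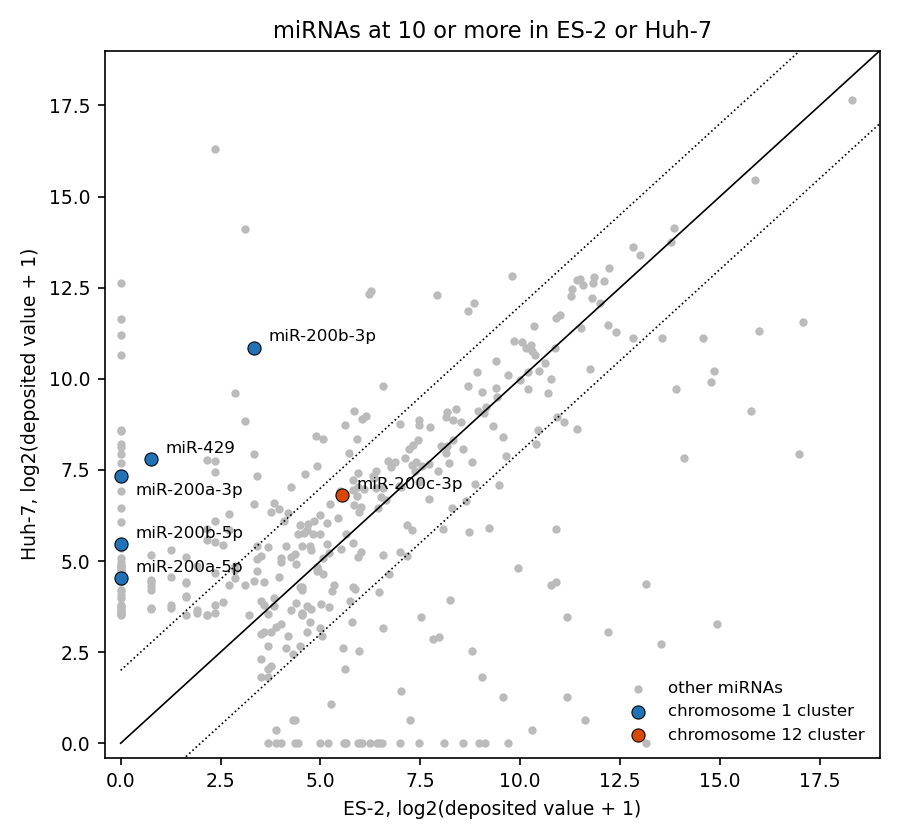
Deposited values of the 390 miRNAs that entered this comparison, as log2(value + 1), with the line of equality and dotted lines at 4-fold. The 5 chromosome 1 members (blue) lie above the upper dotted line and miR-200c-3p (orange) lies between the lines.

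The C643 values were deposited separately and may have been scaled apart from the others, so differences from C643 were only described. Against C643, the same 6 members entered, of which 5 did so through their Huh-7 value alone and 4 had no read in C643. Each was at least 4-fold higher in Huh-7, where 25.1% of 399 miRNAs were, and because of how they entered nothing is read from that count. Between C643 and ES-2, miR-200b-3p (-0.37, ES-2 minus C643) and miR-200c-3p (5.55) entered, and miR-200c-3p was at least 4-fold higher in ES-2, where 10.8% of 351 miRNAs were. Scaling to the library total raises each log2 ratio of Huh-7 to C643 by 0.65. In the other direction, no member that entered was lower in Huh-7 by 4-fold or more. Over all miRNAs compared, 22.6% of 399 were lower in Huh-7 than in C643 by that size, and 19.5% of 390 lower than in ES-2. Since 5 of the 6 entered through their Huh-7 value alone, this count was nearly fixed in advance. Nothing is read from it. miR-141-3p, with the higher deposited value in ES-2 (4.31-fold), did not enter, and its log2 difference was -1.46 (Huh-7 minus ES-2).

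Other epithelium-linked miRNAs were compared in the same way. Of 9 such miRNAs, 7 entered the comparison of ES-2 and Huh-7, and 4 were at least 4-fold higher in Huh-7 (27.7% of all 390 were) and none in ES-2 (19.5%). Scaled to the library total 5 of the 7 passed, beside 41.4% of 437. The median log2 difference of the 7 was 5.38 (5.69 with values below 3 reads set to 3 reads), beside 0.54 over all. Of the 7, miR-375 and miR-215-5p entered only through Huh-7, where they are high, and had to be higher there. The other 5 entered through both libraries, and of these miR-192-5p and miR-194-5p were at least 4-fold higher in Huh-7. Nothing is therefore read from the counts and median of the 7. miR-375, a miRNA of endocrine and glandular cells, had 762 reads in Huh-7, 1 in C643 and 6 in ES-2. miR-192-5p, miR-194-5p and miR-215-5p, known from gut, kidney and liver epithelium, stood at 8799, 8443 and 621 RPM in Huh-7, and at 65.5, 63.1 and 0 RPM in ES-2. The cluster of miR-183-5p, miR-96-5p and miR-182-5p, known from sensory epithelium, had reads in all lines: miR-182-5p had 11153 RPM in Huh-7, 1683 in C643 and 2511 in ES-2. On the deposited scale these 3 were higher in Huh-7 than in ES-2 by 1.69-fold to 2.35-fold, and by share by up to 4.44-fold. Against C643 they were higher in Huh-7 by 5.51-fold to 6.74-fold by share, and on the deposited scale miR-96-5p (log2 difference 2.07) and miR-182-5p (2.08) passed 4-fold and miR-183-5p (1.81) did not. miR-205-5p, a miRNA of stratified epithelium, had no read in any library, and miR-203a-3p, of the skin, had 6 reads in ES-2, 5 in C643 and 0 in Huh-7. Against C643, 6 of the 7 were at least 4-fold higher in Huh-7 (25.1% of all 399 were). Their median was 6.06, beside 0.21 over all. Here too miR-375 and miR-215-5p entered only through Huh-7 and had to be higher there, so nothing is read from this count and median. Between C643 and ES-2 none of 5 was at least 4-fold higher in either library. Of all 351, 15.4% were higher in C643 by that size and 10.8% in ES-2. Over 5 miRNAs nothing is read from this count.

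As a sum, the 11 mesenchyme-linked miRNAs were lowest in Huh-7, where the family was highest. They held 9.68% of reads in ES-2, 5.69% in C643 and 1.05% in Huh-7. Most of this sum in ES-2 and C643 came from miR-222-3p and miR-221-3p. Of the list's 161052 reads in ES-2, miR-222-3p had 92194 and miR-221-3p had 40466. Of 465574 in C643, miR-222-3p had 255408 and miR-221-3p had 123052. Of 22853 in Huh-7, miR-10b-5p had 9490, miR-222-3p 8973 and miR-221-3p 3420. The sum therefore does not stand for every member, and miR-10b-5p was highest by share in Huh-7. Of 10 compared with Huh-7, 7 were higher in ES-2 by 4-fold or more (19.5% of all 390 were) and 2 were higher in Huh-7 (27.7%), with a median log2 difference of -4.76 (Huh-7 minus ES-2). In C643 8 of 10 were at least 4-fold higher than in Huh-7 (22.6% of all 399 were) and 1 was higher in Huh-7 (25.1%), with a median of -4.80 (-5.18 with values below 3 reads set to 3 reads). In each comparison 5 of the 10 had a Huh-7 value of at least 10. The others entered only through ES-2 or C643, where they are high, and had to be higher there. miR-143-3p and miR-145-5p entered the comparison with ES-2 through Huh-7 alone. Nothing is therefore read from these counts and medians.

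Of these, miR-199a-3p, a product of fibroblast-like cells, had 4039 RPM in ES-2 and 3085 in C643, and 26 reads in Huh-7. Its sequence is identical to that of miR-199b-3p, so their reads cannot be told apart. No read of miR-155-5p was found in Huh-7, against 20326 in C643 and 12992 in ES-2. The exceptions were miR-143-3p and miR-145-5p, products of neighbouring hairpins known from smooth muscle, which stood higher in Huh-7 than they did in ES-2: miR-143-3p had 2528 RPM in C643, 398 in Huh-7 and 7.82 in ES-2. miR-10b-5p differed from the rest as well, with 4366 RPM in Huh-7, 583 in C643 and 2531 in ES-2. Between C643 and ES-2, 3 of 11 were higher in C643 by 4-fold or more (miR-143-3p, miR-145-5p and miR-214-3p, where 15.4% of all 351 were) and 2 in ES-2 (miR-199b-5p and miR-10b-5p, where 10.8% were). The other 6 passed in neither direction, and over 11 miRNAs nothing is read from these counts.

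**Figure D5:**
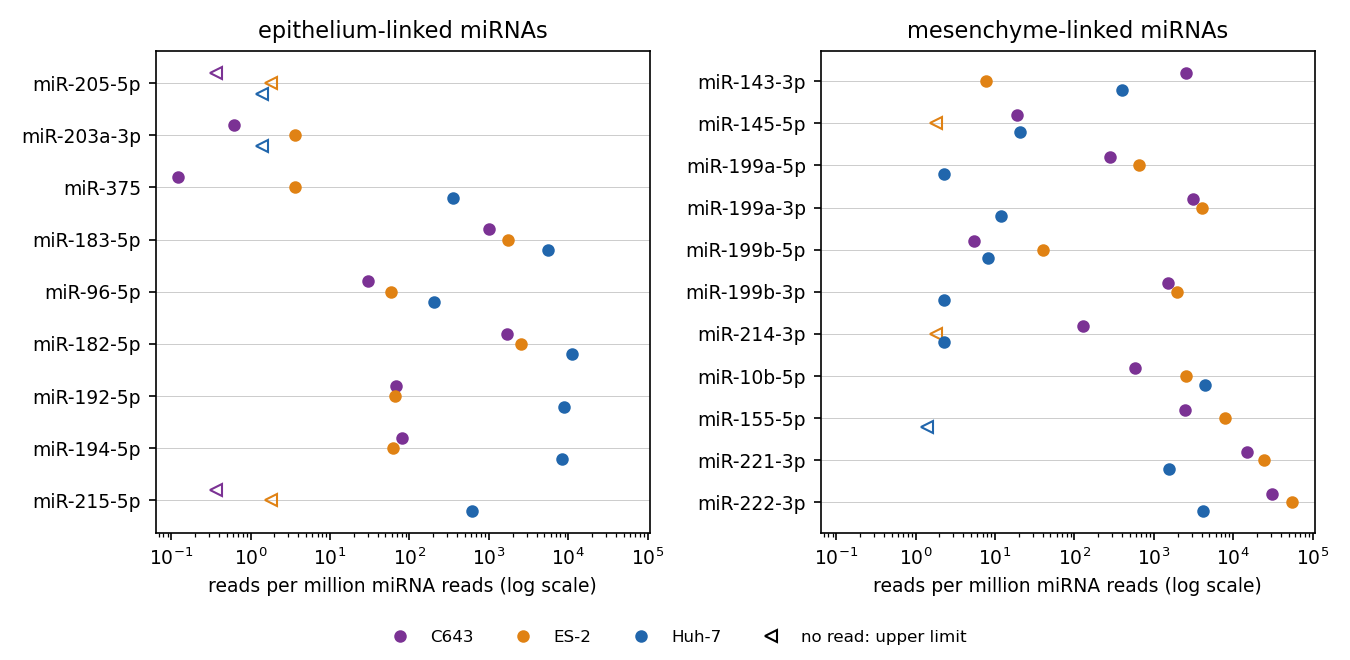
RPM (log axis) of the 9 other epithelium-linked and the 11 mesenchyme-linked miRNAs in C643, ES-2 and Huh-7, 1 library each, with open triangles at the level of 3 reads where no read was found. Huh-7 is rightmost for 7 epithelium-linked miRNAs, and for miR-10b-5p and miR-145-5p of the mesenchyme-linked ones. For miR-145-5p its lead over C643, 1.09-fold (0.766 to 1.53), was within counting error.

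The miRNAs whose levels over the 3 libraries were most like those of the summed family were sought among 340 others with at least 100 reads in a library, by the Euclidean distance of centred log2(RPM + 1). With 3 libraries this is a description only. The nearest was miR-375, at a distance of 0.226, where the median over the 340 was 5.62. It was followed by miR-34a-5p, a target of p53, at 0.295, with 619 reads in Huh-7, 0 in C643 and 6 in ES-2. miR-194-3p (1.05), miR-501-5p (1.19) and miR-216b-5p (1.23) came next. The order depended on the pseudocount, since with 10 in place of 1 none of these 5 was among the nearest 5.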

How the data were processed

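Small RNA of 3 parental lines was sequenced, 1 library per line, from 50 ng of total RNA with a NEXTflex kit. Per the labels, the submitters' processing notes name cutadapt 1.14, Bowtie2 2.3.3, SAMtools 1.5, featureCounts 1.5.3, edgeR 3.18.1 and hg38. How multiply mapping reads were handled and which annotation the authors counted on are not given in the sources used here. Positions were taken here from GENCODE version 29. The authors deposited a signal per miRNA locus under the name CPM, whose columns summed to 959302 for C643, to 1154552 for ES-2 and to 612015 for Huh-7 rather than to 1000000. Dividing by the smallest value above 0 gave whole reads for 100% of values (tolerance 0.001). Levels were therefore taken as shares of recovered reads.

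Values were summed by name. Each member has 1 locus. Shares carry Wilson 95% intervals and ratios exact (Clopper-Pearson) ones. Folds against 0 use 3 reads as the floor. If reads were PCR copies, these intervals are too narrow. Differences of at least 2 on log2(value + 1), over miRNAs at 10 or more in either library, counted as 4-fold. No p-value was taken between lines. Calculations used Python 3.11.15, pandas 2.3.3 and SciPy 1.17.1 and were tested on simulated data.

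Named miRNAs were the members, 9 other epithelium-linked and 11 mesenchyme-linked miRNAs, hepatocyte and blood cell markers, miRNAs sharing a seed and the 5 nearest profiles. Members and lists were chosen with earlier results of these data known. miR-944 and the arms of miR-17 and miR-183 were chosen after their values were seen. Alternatives covered denominators, arms, pseudocounts, filters, thresholds, scaling and a read test.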

Additional observations from a re-analysis of the deposited data

How the results depend on the processing

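No paired analysis was possible because no line has a second library or a numbered replicate. Of the alternatives tried on shares, cluster ratios, counts of members and nearest profiles, 84 left the value within counting error or within 1.5 times of a count, 23 moved it and none of these turned a direction. Each of these alternatives changes a denominator, filter, arm or scale by its own construction. Some of the 84 were fixed by values of 0: the C643 share of chromosome 12 is 0 whatever the denominator. The main counts of 0 members also stayed at 0. Nothing about robustness is therefore read from the tally. Without miR-21-5p in the denominator the family held 0.589% in Huh-7, 0.00202% in C643 and 0.00729% in ES-2, the chromosome 1 cluster 0.00202% in C643 and 0.561% in Huh-7, and the chromosome 12 cluster 0.00611% in ES-2 and 0.0274% in Huh-7. Divided by 1000000, the Huh-7 shares were 0.240% for the family, 0.229% for chromosome 1 and 0.0112% for chromosome 12. With the mean over loci in the denominator, chosen after seeing the data, the family and the chromosome 1 cluster each held 0.00174% in C643, and in Huh-7 the family held 0.433%, chromosome 1 0.413% and chromosome 12 0.0202%. With 3p arms alone the Huh-7 shares were 0.382% for the family and 0.364% for chromosome 1. As a mean per precursor the cluster ratio was 13.6 in Huh-7 and at least 26.2 in C643. The 5 members at least 4-fold higher in Huh-7 than in ES-2 became 3 with a filter at 100. The 1 member at least 4-fold higher in ES-2 than in C643 became 2 without a filter and 0 with a filter at 100. With a pseudocount of 10, 0 of the 5 nearest profiles remained, and miR-192-5p, miR-215-5p, miR-1269b, miR-194-5p and miR-885-3p took their place. An exact binomial test on reads with Benjamini-Hochberg adjustment, added after seeing the data, compares libraries and not lines. Of 390 miRNAs it called 210 higher in Huh-7 and 134 in ES-2 with library sizes implied by the deposited scale, and 260 and 100 with summed reads. Of single members, 12 log2 differences moved beyond counting error and 63 did not. That of miR-200b-5p between C643 and ES-2, below 10 in both, changed sign from -1.52 (ES-2 minus C643) to 0.15 with values below 3 reads set to 3 reads. Depth limits miR-141-3p, with at most 7 reads in any library, and the members without a read.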

Other observations

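The arm balance of hairpins outside the family also varied between C643 and Huh-7. Of 125 precursors with at least 100 reads in both libraries, 41 had a 3p to 5p ratio that differed at least 4-fold, 22 with the 3p arm higher in Huh-7 and 19 in C643. Examples chosen after their values were seen are miR-183, with 0 reads on the 3p and 8349 on the 5p arm in C643 but 103 and 12210 in Huh-7, and miR-148b, with 9589 on the 3p and 0 on the 5p arm in C643 but 6483 and 26 in Huh-7. An arm at exactly 0 was found in 14 of 94 precursors with at least 1000 reads in C643, in 6 of 59 in ES-2 and in 10 of 80 in Huh-7.

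The seed of miR-200c-5p, GUCUUAC, is shared by miR-550a-3p, which had 3 reads in ES-2 and 0 in the other lines.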
